A study of Mus musculus with 15 samples.

Results

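The Wnt ligands, the Frizzled receptors, their co-receptors and the enzyme and carrier that make ligands ready for export were followed in mouse small intestinal organoids. The set held 36 genes of the 43629 in the count table, taken as a list by name: 18 Wnt ligands, 10 Frizzled receptors (Fzd), 6 co-receptors (Lrp5, Lrp6, Ror1, Ror2, Ryk and Ptk7), the acyltransferase Porcn and the carrier Wls. All 36 were present in the tables.

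Wnt proteins are lipid-modified by Porcn in the endoplasmic reticulum and carried to the cell surface by Wls. A ligand bound by a Frizzled receptor together with Lrp5 or Lrp6 stops the destruction complex, of which APC is a part, from degrading beta-catenin, and beta-catenin then acts with TCF factors on target genes. Ror1, Ror2, Ryk and Ptk7 are Wnt co-receptors linked mainly to beta-catenin-independent and planar polarity signalling. R-spondins act through Lgr receptors to keep the ligases Rnf43 and Znrf3 from removing Frizzled receptors from the membrane, which is why crypt organoids are usually grown with RSPO1.

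Organoids of mixed C57B6/129 background were sequenced as poly(A) RNA in 3 groups. WT held 5 libraries grown with RSPO1 in ENR medium, 4 of them (numbers 1, 2, 5 and 6) carrying Apc flox/flox alleles and 1 from dox-naive organoids. Apc held 4 libraries with both Apc alleles deleted (delta/delta), numbered 1, 2, 5 and 6, and P-Rspo3 held 4 libraries (EN15d, EN4d, EN_M and EN_F) with an inversion that fuses Ptprk to Rspo3, and both mutant groups grew in EN medium without RSPO1. Another 2 libraries, LIPO and NAIVE_F, had titles that the remaining labels left unexplained or contradicted and entered no group. By the study's methods, the P-Rspo3 cultures were polyclonal and came from mice with a doxycycline-inducible Cas9, as did dox-naive organoids, so that in both mutant groups the genotype cannot be told apart from the loss of RSPO1, and for P-Rspo3 also largely not from the mouse line. Nothing in the labels says that libraries of a group came from separate cultures or animals, so the p-values below measure the spread between these libraries, which may be technical.

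The 13 grouped libraries held 28902729 to 35528495 counts each. In P-Rspo3, the libraries held 539 to 1079 Rspo3 counts, with 0 or 1 in WT and 7 to 57 in Apc, while its fusion partner Ptprk had 1517 to 3107 counts in P-Rspo3 against 2958 to 4996 in WT. The whole-gene Apc count (4046 to 6810 in WT, 9265 to 10953 in Apc) checks nothing, because only part of the gene is deleted. The 5 epithelial markers (Epcam, Cdh1, Vil1, Krt8 and Krt19) summed to at least 1357 FPKM (fragments per kilobase of transcript, scaled to the depth of the library) in every group, while 11 fibroblast and smooth muscle markers summed to at most 0.926 FPKM in any library, with 8 to 10 of the 11 under 0.1 FPKM in every library of a group. That sum was 0.0832 to 0.21 FPKM in WT, 0.251 to 0.633 in P-Rspo3 and 0.267 to 0.926 in Apc. Within the list, Pdgfra had 0 to 4 counts in WT, 3 to 9 in P-Rspo3 and 54 to 73 in Apc, where it was called higher than in WT, and Thy1 had 0 counts in WT and P-Rspo3 and 1, 16, 35 and 8 in Apc. Pdgfrb was called lower in Apc (0 to 8 counts, against 18 to 39 in WT and 50 to 145 in P-Rspo3), and Col1a2, Col3a1, Dcn and Lum had at most 1 count in any grouped library. Of 3 endothelial markers, Cdh5 read 1.13 to 1.89 FPKM in Apc and was listed at 0 in all WT and P-Rspo3 libraries, while Pecam1 was lower in Apc and Kdr was listed at 0 in every library. The part of fibroblasts or endothelial cells in the Apc values below was not tested. The dox-naive library weighed on the P-Rspo3 comparison: over all genes, 1 was called higher and 0 lower with it, against 166 and 100 without it. Without it, WT held only Apc flox/flox libraries, so that genotype and mouse line could not be told apart.

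In the Apc organoids, the receptor and ligand make-up differed broadly from WT. Of the 25 members that passed the filter on low values (at least 0.1 FPKM in at least 4 libraries), 11 were higher and 2 were lower at an adjusted p under 0.05 with a log2 fold change beyond 1 in size (edgeR quasi-likelihood test, Benjamini-Hochberg adjustment over 16749 genes). That is 44% higher and 8% lower among the tested members, beside 12.2% higher and 14.1% lower among all tested genes (2048 and 2364 genes, against 2586 and 1731 with limma on log2(FPKM + 0.1) and 1418 and 1132 on log2(FPKM + 1)). The higher members were Wnt5b, Wnt6, Wnt7b, Wnt10a, Fzd3, Fzd6, Fzd7, Fzd8, Fzd10, Ptk7 and Wls, and the lower were Fzd4 and Fzd5. The median log2 fold change was 0.52 over the 25 tested members and 0.001 over all tested genes. Wnt7b, Wnt10a and Fzd10 reached 0.1 FPKM in Apc libraries alone, so that their being tested already required a difference. For Wnt5b and Wnt6, the naive library alone among WT reached it, so they too passed the filter only with their Apc libraries. The 44% is therefore not read against the 12.2% among all tested genes, and these shares describe the tested members and not all 36.

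P-Rspo3 organoids, compared with the same WT libraries, had no member past these thresholds among 22 tested, with 0.00625% of 15992 genes called higher (1 gene, Rspo3 itself) and 0% lower by edgeR. At an unadjusted p under 0.05 there were 4 such members (Fzd1, Fzd2, Fzd8 and Ptk7, all with lower means in P-Rspo3) and 2159 genes in all. DESeq2 called 2 members lower, Fzd1 and Ptk7, beside 0.331% of genes higher and 1.08% lower. The median over the 22 tested members was -0.07, and over all genes 0.004.

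Apc against P-Rspo3, both grown without RSPO1, gave 12 members higher and 2 lower among 24 tested, beside 13.4% of 16456 genes higher and 13.3% lower (2209 and 2183 genes, against 2608 and 1653 with limma on log2(FPKM + 0.1) and 1430 and 1124 on log2(FPKM + 1)). Wnt7b, Wnt10a and Fzd10 again reached 0.1 FPKM in Apc libraries alone, so that their being tested already required a difference. Wnt5b, Wnt6 and Fzd1 reached it in some but not all P-Rspo3 libraries, so they too passed the filter only with their Apc libraries. The 12 higher members are therefore not read against the 13.4% among all tested genes. These shares too describe the tested members and not all 36. The 13 members called against WT were all called again with the same sign, and Fzd1 was added. This comparison shares its Apc libraries with the first, so the match is not independent.

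**Figure D1:**
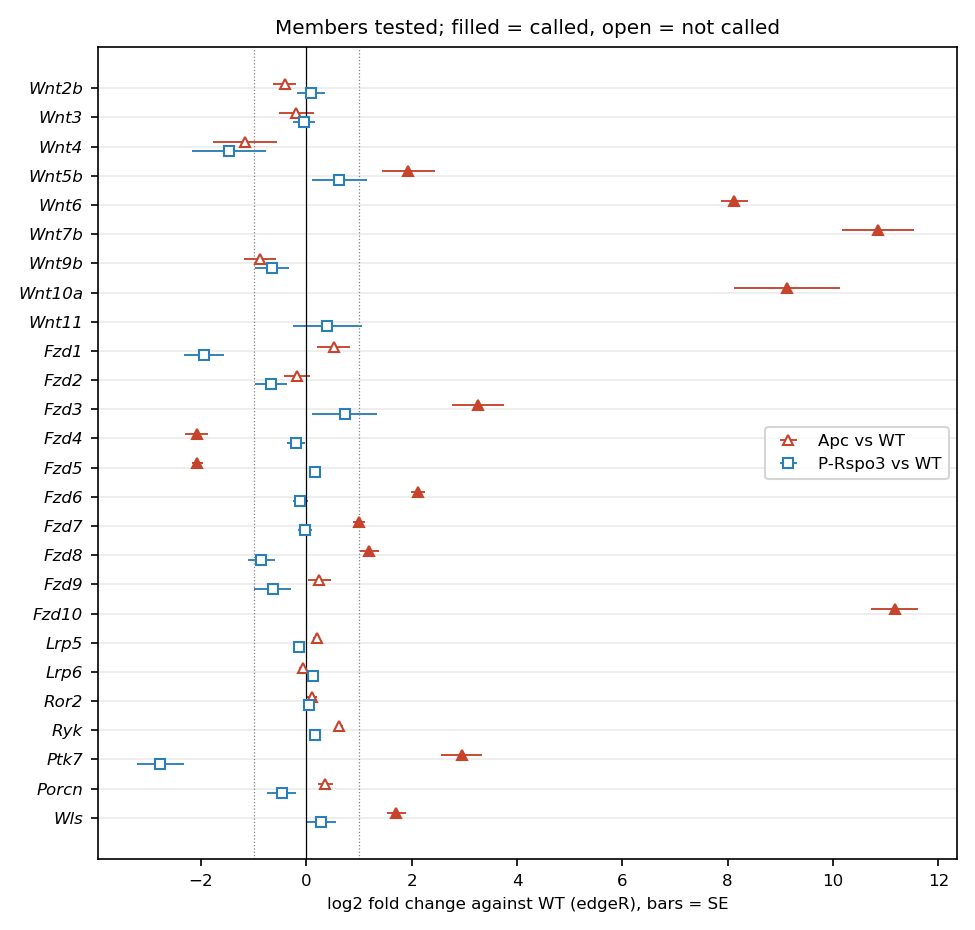
Log2 fold change against WT for each member tested in at least 1 of the comparisons with WT (x axis, edgeR, bars = SE), with triangles for Apc and squares for P-Rspo3, filled where called. Filled symbols belong to Apc only, 11 to the right of 1 and 2 (Fzd4 and Fzd5) to the left of -1; Fzd1 and Ptk7 are the P-Rspo3 members farthest to the left at -1.94 and -2.77. For Wnt7b, Wnt10a and Fzd10, WT had no counts and the fitted value is no bound.

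Among the ligands, Wnt3, which Paneth cells of the crypt make to support neighbouring stem cells, was the most abundant in WT and P-Rspo3, and Wnt6 was the most abundant in Apc. Wnt3 stood at 2.63, 2.39, 1.85, 2.51 and 1.86 FPKM in WT, 3.38, 1.62, 1.77 and 2.04 in P-Rspo3 and 1.51, 3.25, 3.75 and 1.07 in Apc. Here and below, libraries run in the order 1, 2, 5, 6 and naive for WT, EN15d, EN4d, EN_M and EN_F for P-Rspo3, and 1, 2, 5 and 6 for Apc. The 3 groups overlapped, and Wnt3 was not called in any comparison (Apc against WT log2 fold change -0.19, SE 0.328, adjusted p = 0.644, edgeR). Its spread was widest in Apc, with 2 libraries above and 2 below the whole WT range.

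Wnt6, a ligand made by epithelia in development, read 0.0491, 0.0835, 0.0694, 0.0112 and 0.138 FPKM in WT and 0.0122, 0.130, 0.166 and 0.0777 in P-Rspo3. In the Apc libraries it read 15.7, 17.4, 21.8 and 18.8 FPKM. The WT values rest on 1 to 6 counts per library and the Apc values on 1262 to 1655, with no overlap. The fitted log2 fold change was 8.13 (SE 0.264, adjusted p = 6.83e-09, edgeR) against WT and 7.71 (SE 0.258, adjusted p = 1.01e-07) against P-Rspo3, near 283-fold and 210-fold as ratios of mean counts scaled by TMM (trimmed mean of M values).

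Wnt7b, which acts in lung and kidney development, had 0 counts in every WT and P-Rspo3 library. In Apc it had 303, 114, 285 and 380 counts (2.19, 0.899, 2.09 and 2.65 FPKM), at least 66.6-fold above a floor of 3 counts per WT library. Wnt10a, a ligand of tooth and skin appendage development, had 0 counts in every WT library, 2, 0, 0 and 0 in P-Rspo3 and 31, 45, 102 and 151 in Apc (0.311, 0.478, 1.20 and 1.38 FPKM). Its excess over WT was at least 20.3-fold, and over P-Rspo3, whose 4 libraries held 2 counts in all, it was 127-fold with an exact 95% counting interval from 34.8 to 1052. Both genes were undetectable at this depth outside Apc apart from those 2 counts, and both varied more than 3-fold in counts among the Apc libraries. The intervals and floors cover counting error only.

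Wnt5b, a ligand of beta-catenin-independent signalling, read 0.0640, 0.0723, 0.0718, 0.0788 and 0.281 FPKM in WT, 0.0874, 0.154, 0.188 and 0.256 in P-Rspo3 and 0.266, 0.442, 0.752 and 0.662 in Apc. It was called higher in Apc against WT (log2 fold change 1.94, SE 0.501, adjusted p = 0.0064, edgeR) and against P-Rspo3 (1.32, SE 0.425, adjusted p = 0.0246), but the groups overlapped: the naive WT library exceeded the lowest Apc library on the FPKM scale. Against P-Rspo3 the call was lost without Apc 5, Apc 6, EN15d or EN4d in turn (adjusted p between 0.0559 and 0.071).

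The other 13 ligands were low. Wnt2b ranged from 0.175 to 0.386 FPKM over the grouped libraries, Wnt9b from 0.142 to 0.470 and Wnt4 from 0.0206 to 0.458, and none of them was called. Wnt9b had lower TMM-scaled values in every Apc library than in any WT library, with a log2 fold change of -0.88 (SE 0.3, adjusted p = 0.026, edgeR), short of the fold threshold. Wnt11 was tested only in P-Rspo3 against WT (0.40, SE 0.651, adjusted p = 0.842). The remaining 9, Wnt1, Wnt2, Wnt3a, Wnt5a, Wnt7a, Wnt8b, Wnt9a, Wnt10b and Wnt16, passed the filter in no comparison and reached at most 42 counts in any grouped library (Wnt5a in EN15d). Among them, Wnt7a had 0, 0, 0, 2 and 1 counts in WT, 0 in every P-Rspo3 library and 2, 2, 11 and 30 in Apc.

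**Figure D2:**
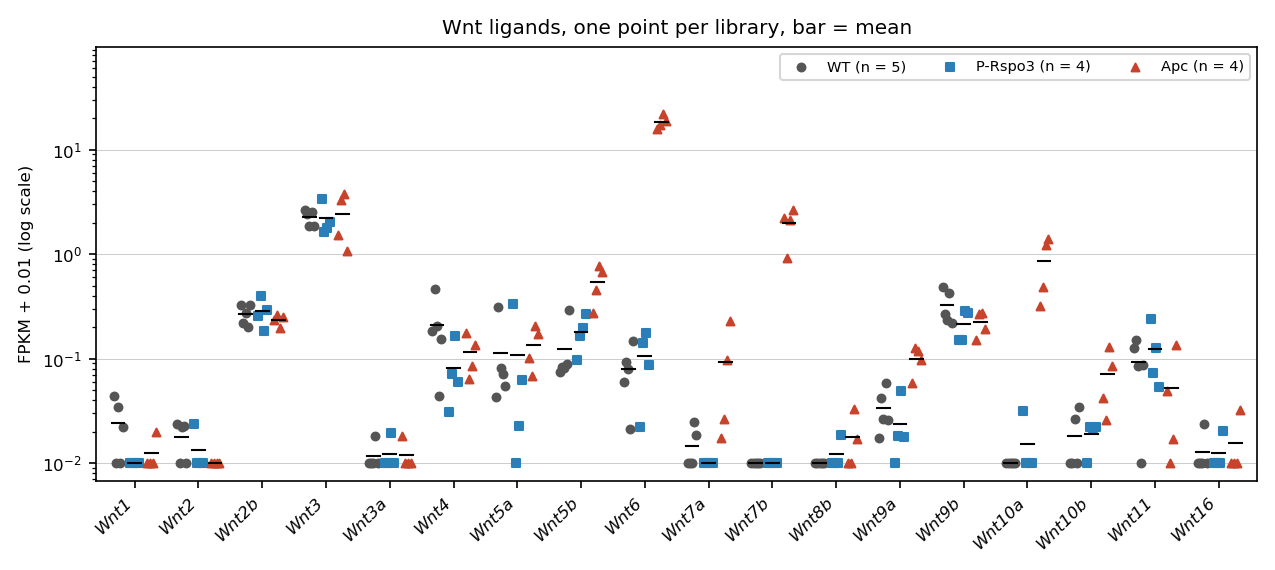
FPKM of the 18 Wnt ligands in each library, on a log axis after adding 0.01 so that zeros can be drawn, with horizontal bars at the group means. Wnt6, Wnt7b and Wnt10a stand apart in Apc, Wnt3 sits between 1.07 and 3.75 FPKM in all groups, and most other ligands lie below 0.5.

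Summed over the 18 genes, ligand FPKM was 3.46 ± 0.469 (SD, n = 5) in WT, 3.27 ± 0.839 (n = 4) in P-Rspo3 and 25.1 ± 4.24 (n = 4) in Apc. Wnt3 made up 59.4% to 73.9% of the sum in WT and 4.14% to 14% in Apc, where Wnt6 made up 71.1% to 75.7%. FPKM divides by all fragments and not by TMM, and on this scale the median over all genes lay 0.28 higher (log2, pseudocount 0.1) in Apc than in WT. A total over bulk RNA cannot tell fewer cells of a type from less RNA per cell.

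Wnt6 and Wnt10a are neighbours. In the GENCODE M21 annotation of GRCm38, Wnt6 lies at chr1:74771892-74785322 and Wnt10a at chr1:74791516-74804179, both on the plus strand and 6193 bases apart, and both were called higher in Apc. Of the 3 other pairs of Wnt genes less than 100000 bases apart, Wnt9b and Wnt3 (24328 bases) had no called member. Wnt3a and Wnt9a (16175 bases) and Wnt10b and Wnt1 (11706 bases) did not pass the filter. Without the FPKM filter, Wnt9a was called higher in Apc. Wnt7b, on chromosome 15, shares 6.6% of its exonic bases with the opposite-strand gene AU022754, and since the strand setting of the counting is not given in the sources used here, its reads could in part belong there.

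Promoter sequence was examined because 11 members moved in 1 direction together. RefSeq windows (GRCm38.p6) were at hand for 26 of the 36 members, and for 6 of the 11 called higher in Apc. Each window below covers the 250 bases before a transcription start, 5′ to 3′ on the gene's strand, for the 5 of these 6 with a window free of annotated exons (for Wnt5b, which has 3 such windows, the 1 that holds the motif searched here). Capitals mark CTTTGA, a form of the core TCF/LEF motif, searched on both strands as CTTTGA or TCAAAG. Other forms of the motif, such as CTTTGT, were not searched and are not marked.

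Wnt6, chr1:74771642-74771891, plus strand: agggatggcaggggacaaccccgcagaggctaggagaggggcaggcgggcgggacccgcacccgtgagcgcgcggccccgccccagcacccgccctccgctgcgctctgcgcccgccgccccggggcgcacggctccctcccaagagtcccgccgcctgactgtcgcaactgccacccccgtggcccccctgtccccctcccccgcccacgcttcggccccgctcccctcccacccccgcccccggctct
Ptk7, chr17:46629505-46629754, minus strand: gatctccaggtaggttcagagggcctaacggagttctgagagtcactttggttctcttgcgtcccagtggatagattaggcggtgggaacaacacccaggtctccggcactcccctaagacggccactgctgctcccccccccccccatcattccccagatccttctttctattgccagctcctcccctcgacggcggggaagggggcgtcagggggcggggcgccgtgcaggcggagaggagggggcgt
Fzd7, chr1:59481897-59482146, plus strand: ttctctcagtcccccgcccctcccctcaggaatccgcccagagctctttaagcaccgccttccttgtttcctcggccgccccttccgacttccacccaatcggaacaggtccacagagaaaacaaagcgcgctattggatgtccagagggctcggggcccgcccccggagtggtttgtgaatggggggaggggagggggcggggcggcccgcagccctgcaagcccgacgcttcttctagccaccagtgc
Wls, chr3:159839400-159839649, plus strand: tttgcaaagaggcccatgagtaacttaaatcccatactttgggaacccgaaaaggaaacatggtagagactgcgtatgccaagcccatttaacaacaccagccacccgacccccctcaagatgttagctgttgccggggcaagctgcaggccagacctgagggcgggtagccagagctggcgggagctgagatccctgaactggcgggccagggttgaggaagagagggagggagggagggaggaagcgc
Wnt5b, chr6:119449387-119449636, minus strand: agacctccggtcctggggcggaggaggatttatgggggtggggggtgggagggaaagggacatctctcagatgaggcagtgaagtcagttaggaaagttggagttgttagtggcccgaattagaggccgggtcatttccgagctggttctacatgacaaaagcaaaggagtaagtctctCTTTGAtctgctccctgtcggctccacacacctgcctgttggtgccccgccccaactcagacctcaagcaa

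The motif was found in 1 of the 8 windows of the 6 members called higher, the Wnt5b window printed here, starting 71 bases before the start, and the other 2 windows of Wnt5b do not hold it. Over all 26 members it was found in 4 (Wnt5b, Wnt11, Fzd1 and Ror1), each in 1 window of the 29, while 13.8% of all 32851 windows in the table held it. Of the printed windows, those of Wnt6, Ptk7, Fzd7 and Wls do not hold these letters, which says nothing of other forms of the motif or of more distant sites.

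The Frizzled receptors, which bind Wnt proteins through an extracellular cysteine-rich domain, changed in both directions in Apc. Fzd5, a receptor known from Paneth cell maturation, was the leading Frizzled in WT and P-Rspo3 and the third in Apc. It read 21.8, 19.0, 18.9, 22.5 and 21.9 FPKM in WT, 23.6, 28.6, 22.0 and 21.6 in P-Rspo3 and 7.66, 6.14, 5.55 and 5.50 in Apc. Every Apc library was below every other library, with a log2 fold change of -2.07 (SE 0.105, adjusted p = 8.59e-08, edgeR) against WT and -2.23 (SE 0.125, adjusted p = 1.08e-06) against P-Rspo3. The annotation places 17.8% of the exonic bases of Fzd5 over the opposite-strand gene Gm38058.

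Fzd4, also a receptor for Norrin, read 4.14, 4.51, 5.26, 2.92 and 3.85 FPKM in WT, 3.21, 4.02, 3.77 and 3.63 in P-Rspo3 and 0.865, 1.63, 1.12 and 1.19 in Apc. It too fell in Apc without overlap (log2 fold change -2.08, SE 0.223, adjusted p = 1.63e-05, edgeR), to about the same fraction of WT as Fzd5, the TMM-scaled ratios being 0.237 and 0.238. Markers of differentiated cells were lower in the same libraries: 6 of 8 Paneth cell markers (summed FPKM 672 to 1676 in Apc and 7217 to 12091 in WT), 6 of 6 enterocyte markers (20 to 52 against 1835 to 4578) and 4 of 5 goblet cell markers (138 to 325 against 912 to 1326). The Paneth marker Mmp7 was higher, and Defa22 was not called. The part of these cell types in the fall of Fzd4 and Fzd5 was not tested.

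Fzd7, a Frizzled of Lgr5-positive stem cells, took the leading place in Apc. It read 8.54, 10.3, 7.46, 11.2 and 7.81 FPKM in WT, 10.6, 10.1, 8.27 and 7.05 in P-Rspo3 and 24.6, 20.9, 24.3 and 20.2 in Apc. All Apc libraries lay above all others, but the size of the difference sat at the threshold: the log2 fold change was 1.01 (SE 0.114, adjusted p = 2.31e-05, edgeR) against WT, and between 0.96 and 0.99 without WT 1, WT 5, the naive library, Apc 1 or Apc 5 in turn, so that the call was lost each time on fold and not on p.

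Fzd6, which takes part in planar polarity, read 1.70, 2.71, 1.89, 2.72 and 2.10 FPKM in WT, 2.10, 2.10, 2.16 and 1.97 in P-Rspo3 and 11.4, 10.7, 13.3 and 12.0 in Apc. The fold change was 2.12 on the log2 scale (SE 0.137, adjusted p = 4.22e-07, edgeR) against WT and 2.24 (SE 0.085, adjusted p = 1.78e-07) against P-Rspo3. Fzd3, its close relative in planar polarity and axon guidance, read 0.112, 0.202, 0.110, 0.689 and 0.0826 FPKM in WT, 0.407, 0.896, 0.157 and 0.254 in P-Rspo3 and 3.32, 1.34, 2.69 and 3.04 in Apc. It rose by 3.26 (SE 0.49, adjusted p = 0.000185, edgeR) against WT. The lowest Apc value was above the highest value of either other group for both genes, and WT 6 held the highest Fzd3 among WT libraries.

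Fzd10 was detected in Apc and hardly elsewhere. It had 380, 220, 319 and 421 counts in Apc (2.92, 1.87, 2.55 and 3.10 FPKM) and 0 in each of the 9 WT and P-Rspo3 libraries, at least 83.1-fold above a floor of 3 counts per WT library and at least 84.8-fold above that of P-Rspo3. Fzd8 read 0.329, 0.509, 0.400, 0.425 and 0.478 FPKM in WT, 0.264, 0.133, 0.234 and 0.289 in P-Rspo3 and 1.25, 1.27, 1.15 and 1.11 in Apc. It rose by 1.20 (SE 0.176, adjusted p = 0.000153, edgeR) in Apc against WT and by 2.07 (SE 0.247, adjusted p = 9.22e-05) against P-Rspo3, where its level lay below the WT range without a call (-0.85, SE 0.254, adjusted p = 0.194).

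Fzd1 set the P-Rspo3 group apart from Apc. It had 56, 40, 62, 68 and 18 counts in WT, 13, 11, 9 and 17 in P-Rspo3 and 111, 80, 83 and 93 in Apc. The naive WT library was the one nearest to P-Rspo3. Apc exceeded P-Rspo3 by 2.48 on the log2 scale (SE 0.261, adjusted p = 4.22e-05, edgeR) but was not called against WT (0.52, SE 0.309, adjusted p = 0.177). P-Rspo3 against WT gave -1.94 (SE 0.382, adjusted p = 0.0957, edgeR), with the groups not overlapping, and adjusted p = 0.00296 without the naive library. Leaving that library out left only Apc flox/flox organoids in WT, so that genotype could not be told apart from mouse line.

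The remaining receptors were Fzd2 and Fzd9. Fzd2 read 1.73, 2.41, 1.71, 2.69 and 0.967 FPKM in WT, 1.91, 1.08, 1.06 and 0.891 in P-Rspo3 and 1.98, 1.95, 2.21 and 2.16 in Apc. It was not called in any comparison (Apc against WT -0.17, SE 0.247, adjusted p = 0.579, edgeR). Fzd9 ranged from 0.172 to 1.01 FPKM over all grouped libraries and was not called. On TMM-scaled counts its Apc libraries lay above all P-Rspo3 libraries (log2 fold change 0.90, SE 0.34, adjusted p = 0.0476, edgeR), short of the fold threshold. Against WT the Apc libraries overlapped (0.25, SE 0.214, adjusted p = 0.351, edgeR).

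**Figure D3:**
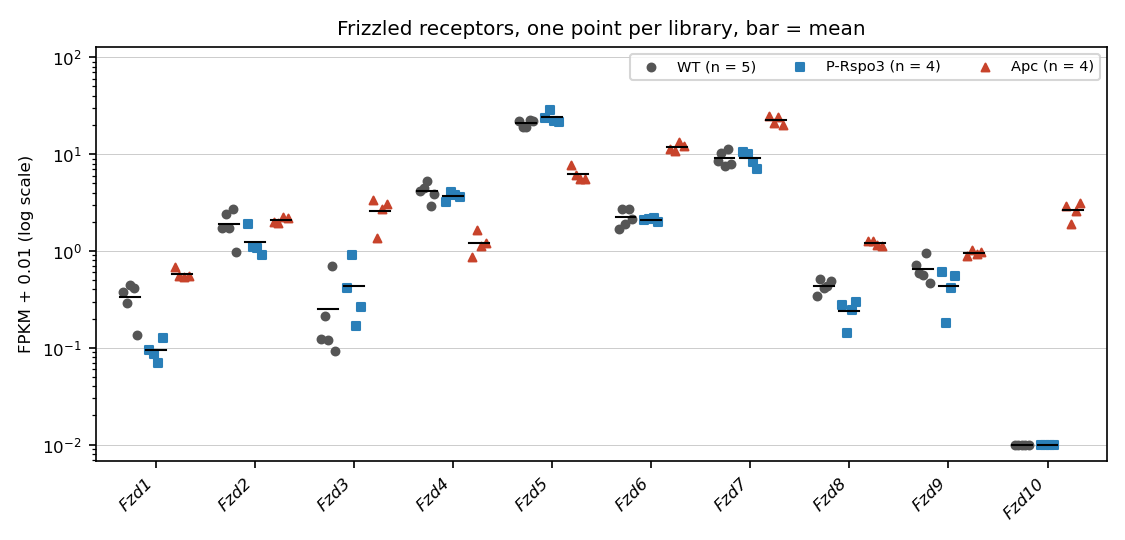
FPKM of the 10 Frizzled receptors in each library, on a log axis after adding 0.01, with horizontal bars at the group means. Fzd4 and Fzd5 lie lower in Apc than in the other groups, Fzd3, Fzd6, Fzd7, Fzd8 and Fzd10 lie higher, and Fzd1 is lowest in P-Rspo3.

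Expressed as a share of the summed Frizzled FPKM of a library, Fzd5 held 46.9% to 57.9% in WT, 55.1% to 60.7% in P-Rspo3 and 10.2% to 13.8% in Apc. Fzd7 held 20.3% to 25.4% in WT and 40.5% to 44.7% in Apc, and Fzd6 held 4.30% to 6.68% in WT and 20.5% to 24.5% in Apc. The sum itself was 39.8 ± 2.98 FPKM (SD, n = 5) in WT, 41.1 ± 4.90 (n = 4) in P-Rspo3 and 51.8 ± 3.85 (n = 4) in Apc. The order in WT was Fzd5, Fzd7, Fzd4, Fzd6 and Fzd2, where the ranges of Fzd6 (1.70 to 2.72) and Fzd2 (0.967 to 2.69) overlapped, and in Apc it was Fzd7, Fzd6, Fzd5, Fzd10 and Fzd3, where those of Fzd10 (1.87 to 3.10) and Fzd3 (1.34 to 3.32) overlapped.

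**Figure D4:**
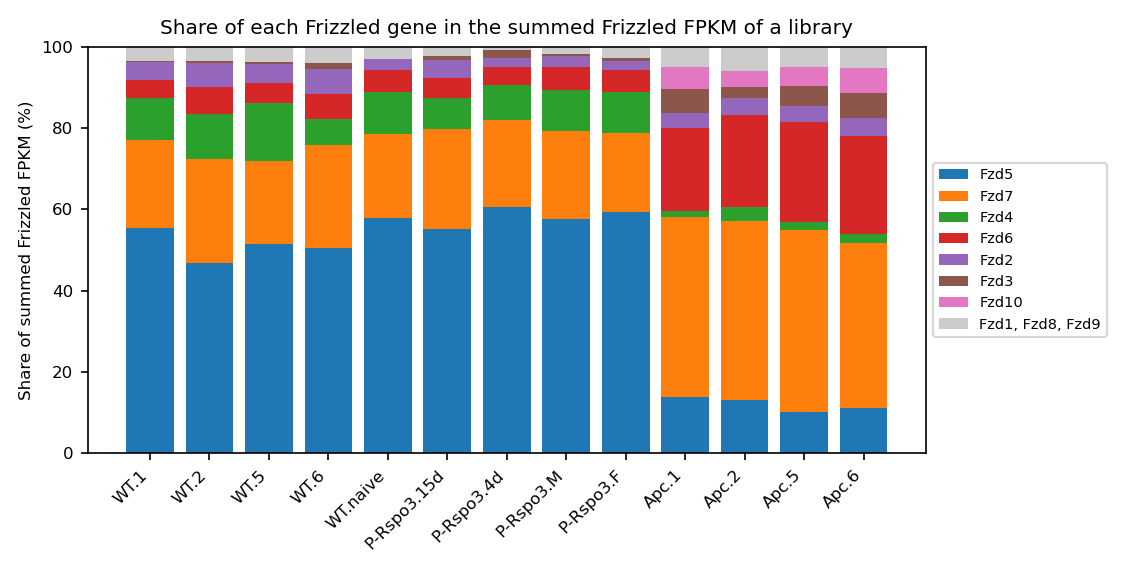
Stacked bars of the share (%) of each Frizzled gene in the summed Frizzled FPKM of each library, with Fzd1, Fzd8 and Fzd9 joined in grey. Fzd5 is the widest part of every WT and P-Rspo3 bar (46.9% to 60.7%), while in the Apc bars Fzd7 (40.5% to 44.7%) and Fzd6 (20.5% to 24.5%) are the widest parts.

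Of the co-receptors, only Ptk7, a pseudokinase of planar polarity, was called. It read 0.303, 0.910, 1.17, 1.64 and 0.626 FPKM in WT, 0.172, 0.101, 0.129 and 0.157 in P-Rspo3 and 8.64, 6.98, 12.8 and 6.87 in Apc. The 3 groups were fully separated, with P-Rspo3 lowest and Apc highest. Apc exceeded WT by 2.95 on the log2 scale (SE 0.393, adjusted p = 7.74e-05, edgeR) and P-Rspo3 by 5.74 (SE 0.272, adjusted p = 4.4e-07). P-Rspo3 against WT gave -2.77 (SE 0.449, adjusted p = 0.0821, edgeR), with the adjusted p at 0.0156 without WT 1, whose 62 counts were the lowest of WT, and at 0.0112 without the naive library. In the last fit, WT again held only Apc flox/flox organoids. In all, 3 members (Fzd1, Fzd8 and Ptk7) lay below WT in every P-Rspo3 library on TMM-scaled counts and 0 lay above, beside 2.51% of all tested genes below and 2.38% above.

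Lrp5 and Lrp6, the co-receptors of the beta-catenin branch, were among the most abundant members in every group. Lrp5 read 20.04, 21.1, 18.2, 20.7 and 18.9 FPKM in WT, 20.3, 17.0, 19.7 and 14.8 in P-Rspo3 and 26.7, 24.9, 26.96 and 31.6 in Apc. Lrp6 read 10.8, 11.4, 10.8, 14.1 and 10.5 FPKM in WT, 13.6, 13.6, 11.6 and 11.7 in P-Rspo3 and 13.1, 13.2, 13.5 and 13.8 in Apc. Against WT the Apc differences were small, 0.20 (SE 0.069, adjusted p = 0.03, edgeR) for Lrp5 and -0.07 (SE 0.077, adjusted p = 0.49) for Lrp6, the second changing sign on the FPKM scale, where the Apc mean was higher (13.4 against 11.5).

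Ryk, a Wnt-binding pseudokinase, read 17.9, 16.1, 14.9, 19.2 and 17.2 FPKM in WT, 19.97, 21.8, 19.2 and 15.7 in P-Rspo3 and 32.7, 32.2, 32.2 and 32.0 in Apc. All Apc libraries exceeded all WT libraries, and the log2 fold change of 0.63 (SE 0.065, adjusted p = 1.19e-05, edgeR) passed the test on p but not on fold. Ror2, a receptor tyrosine kinase bound by Wnt5a, read 4.76, 5.93, 4.24, 5.33 and 4.80 FPKM in WT, 5.17, 4.999, 5.77 and 5.36 in P-Rspo3 and 6.46, 7.24, 5.93 and 6.57 in Apc. It was not called (0.11, SE 0.102, adjusted p = 0.379 for Apc against WT). Ror1 had at most 9 counts in any grouped library and was not tested.

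Wls, the carrier of lipidated ligands, rose in Apc and Porcn was not called. Wls read 7.18, 10.4, 6.90, 11.5 and 5.91 FPKM in WT, 17.5, 9.49, 6.51 and 7.48 in P-Rspo3 and 34.3, 26.97, 38.1 and 34.9 in Apc. It exceeded WT by 1.71 on the log2 scale (SE 0.181, adjusted p = 1.49e-05, edgeR) and P-Rspo3 by 1.45 (SE 0.269, adjusted p = 0.00137), and EN15d stood highest among the libraries outside Apc. Porcn read 3.47, 2.86, 2.58, 2.66 and 1.996 FPKM in WT, 1.89, 2.33, 3.67 and 0.972 in P-Rspo3 and 3.83, 4.49, 4.53 and 5.04 in Apc. Its log2 difference between Apc and WT was 0.36 (SE 0.145, adjusted p = 0.0541, edgeR) and between Apc and P-Rspo3 0.85 (SE 0.308, adjusted p = 0.0399), below the fold threshold.

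**Figure D5:**
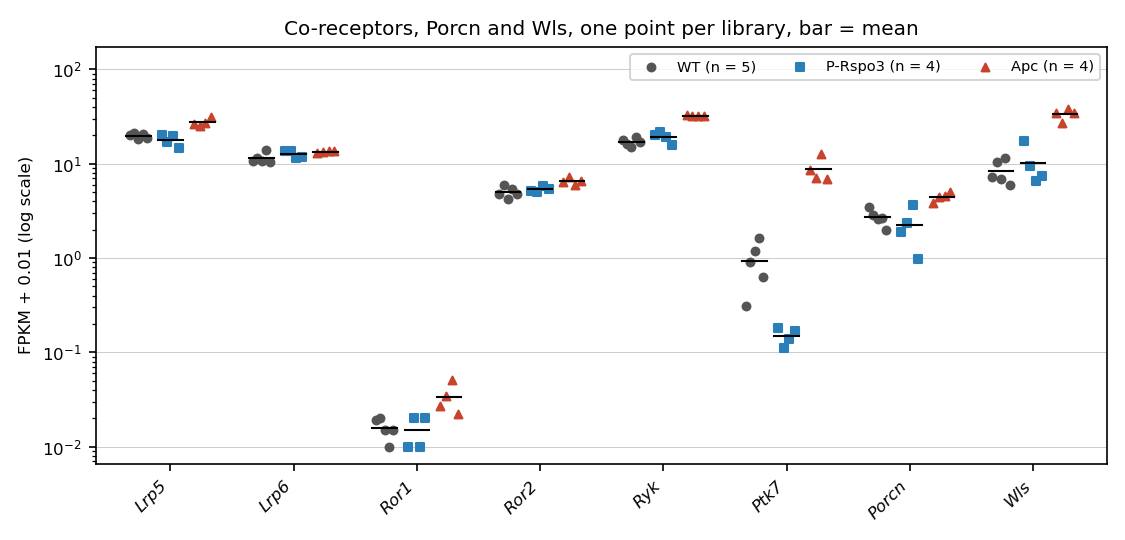
FPKM of the 6 co-receptors, Porcn and Wls in each library, on a log axis after adding 0.01, with horizontal bars at the group means. Ptk7 separates all 3 groups (0.101 to 0.172 in P-Rspo3, 0.303 to 1.64 in WT and 6.87 to 12.8 in Apc), Wls is higher in Apc, and Lrp5, Lrp6 and Ror2 lie close together.

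Members whose TMM-scaled values did not overlap at all were counted too. Of 25 tested, 12 lay above WT and 3 below WT in every Apc library, beside 26.5% of all tested genes above and 25.3% below. Against P-Rspo3 the Apc libraries lay above for 14 of 24 tested members and below for 3, beside 27.4% and 26.4% of all tested genes. Wnt7b, Wnt10a and Fzd10 were among those above in both comparisons. They reached 0.1 FPKM in Apc libraries alone, so that their being tested already required a difference. Wnt6, above in both comparisons, and Fzd1, above P-Rspo3, also passed the filter there only with their Apc libraries. The counts above are therefore not read against the shares among all tested genes.

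Genes that act on these receptors from outside or beside them were read from lists by name. Of 14 genes listed under the name of secreted Wnt antagonists, 6 were tested in Apc against WT and 5 were higher, with none lower: Wif1, Sfrp2, Dkk2, Dkk3 and Notum. Sfrp2, Dkk2 and Dkk3 reached 0.1 FPKM in Apc libraries alone and could be tested only because they were high there, so the count is not read against the 12.2% higher and 14.1% lower among all tested genes. Notum, an extracellular enzyme that removes the lipid from Wnt proteins, read 0.199, 0.518, 1.40, 0.351 and 0.253 FPKM in WT and 25.0, 62.3, 60.7 and 93.0 in Apc (log2 fold change 6.79, SE 0.523, adjusted p = 1.48e-06, edgeR), and 7.57 (SE 0.468, adjusted p = 1.87e-06) was its difference from P-Rspo3. The annotation places 38.1% of the exonic bases of Notum over the opposite-strand genes Myadml2os and Notumos. With the strand setting not given, its reads could in part belong there. Dkk2 and Dkk3, of the Dickkopf family of secreted regulators, varied widely among the Apc libraries. Dkk2 had 0 counts in WT and P-Rspo3 and 188, 34, 39 and 46 in Apc, at least 19.0-fold above the WT floor and at least 19.4-fold above that of P-Rspo3. Dkk3 had 0, 2, 2, 2 and 1 counts in WT, 1 in all of P-Rspo3 and 42, 28, 441 and 1067 in Apc (log2 fold change 7.57, SE 1.25, adjusted p = 0.000356 against WT, edgeR), with a ratio to P-Rspo3 of 1217 (exact 95% counting interval 218 to 48095).

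Among 18 receptor complex partners, 10 were tested in Apc against WT and 4 were higher (Lgr5, Tspan12, Rnf43 and Znrf3), and among 10 Dishevelled and planar polarity genes, 9 were tested and 3 were higher (Vangl1, Vangl2 and Prickle1), with 0 lower in either list, beside the same 12.2% and 14.1% of all tested genes. Prickle1 too reached 0.1 FPKM only in Apc libraries. Against P-Rspo3, Apc had 4 of 11 tested partners higher and 2 lower (Rspo3 and Gpc3) and 4 of 9 polarity genes higher, beside 13.4% higher and 13.3% lower among all tested genes. The 6 genes of the antagonist list tested there were called higher, but 4 of them (Sfrp2, Wif1, Dkk2 and Dkk3) reached 0.1 FPKM in Apc libraries alone. In P-Rspo3 against WT, Rspo3 was the only gene of the 3 lists to be called (log2 fold change 11.39, SE 0.416, adjusted p = 8.08e-07, edgeR), and its ratio was 4387 with an exact 95% counting interval from 787 to 173345, since WT held 1 count in all.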

How the data were processed

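Poly(A) RNA of 15 organoid libraries was used, 13 of them in groups. Per the study's methods, STAR was used by the authors for alignment to GRCm38, and they deposited read counts per gene (HTSeq 0.6.0) and FPKM values (Cufflinks 2.2.1). The strand setting and annotation release are not given in the sources used here. Ensembl identifiers were matched to GENCODE M21 symbols (42548 of 43629), and promoter windows came from RefSeq (GRCm38.p6).

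A gene was tested if it had at least 0.1 FPKM in 4 or more libraries (the size of the smaller group). The test ran on the deposited counts with edgeR 4.0.16 (TMM, quasi-likelihood test, R 4.3.3), with Benjamini-Hochberg adjustment over all genes tested. Calls needed an adjusted p under 0.05 with a log2 fold change beyond 1 in size. The SE given with an edgeR log2 fold change is the size of that change divided by the square root of its F statistic. No block was used. Alternatives were DESeq2 1.42.0, limma 3.58.1 on log2(FPKM + 1) and log2(FPKM + 0.1), other filters, sample sets and each library left out. The fits were tested on simulated data. No 2 libraries of a group had the same counts within sampling noise (chi-square per gene of at least 20.5).

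The members and lists were chosen with earlier results of these data known. Values per library are given for members called in any comparison or with a group mean of at least 1 FPKM, and for the 3 other pathway genes with the largest called change in each comparison. Genes tested in only some comparisons passed the filter only there. Protein sequences were not used here.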

Additional observations from a re-analysis of the deposited data

Results flagged for a closer look

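Among the 57 sets of FPKM values of 1 named member in 1 group, 4 had a library far from the others (Dixon's criterion, which by chance flags about 1 set in 20). Wnt5b read 0.281 FPKM in the naive WT library, against 0.0640 to 0.0788 in the other WT libraries. Fzd3 read 0.689 FPKM in WT 6, against 0.0826 to 0.202, and Lrp6 read 14.1 FPKM in the same library, against 10.5 to 11.4. Fzd1 read 0.677 FPKM in Apc 1, against 0.526 to 0.540 in the other Apc libraries. No call of Fzd3, Lrp6 or Fzd1 in Apc against WT changed when the library concerned was left out.

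Outside the groups, Rspo3 read 8.54 FPKM in the library titled NAIVE_F, whose genotype label is that of P-Rspo3, against 0 to 0.0112 FPKM in WT. That value lay within the P-Rspo3 range of 6.26 to 11.5 FPKM. That library entered no group because its title and genotype label conflict.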

How the results depend on the processing

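Under the alternatives run, no named member's log2 fold change turned its direction with a call. The 11 higher and 2 lower members of Apc against WT were counted again with DESeq2 size factors, the DESeq2 test, the newer form of the edgeR test, filterByExpr, all 3 groups in 1 fit, groups by the genotype field and limma with a pseudocount of 0.1; limma with a pseudocount of 1 gave 8 and 2, no FPKM filter 13 and 2, and adjusted p alone 13 and 3. With no FPKM filter, the added members were Wnt7a and Wnt9a. Leaving out 1 library at a time gave 10 to 11 higher (Fzd7 lost) and 2 to 3 lower (Wnt9b without Apc 2 or Apc 5, Wnt4 without WT 6). With the library number as a replicate block (naive library left out), the count was 10 higher and 2 lower, without Fzd7. The labels do not say what a shared number stands for. Deviations of the 4 same-numbered pairs correlated at -0.009 to 0.197 over 16506 genes (median 0.09, against -0.029 for the 12 other pairs), so that not every pair was above 0.1, the level asked for here, and the fit without the block was kept. As a hint from the data, 5 of 8 libraries correlated best with their own number.

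For Apc against P-Rspo3, the 12 higher and 2 lower members became 14 and 3 with no FPKM filter, 16 and 3 with adjusted p alone, 8 and 2 with limma at a pseudocount of 1 and 14 and 2 at 0.1, and 11 to 13 and 2 to 3 without 1 library (Wnt5b and Fzd7 lost at times, and Fzd9, Porcn and Wnt11 gained). With no FPKM filter, Wnt7a and Wnt9a were added to the higher members and Wnt11 to the lower. No paired fit was made here, since P-Rspo3 libraries carry no such number. On the FPKM scale, the median over all genes moved to 0.17 (pseudocount 1) and 0.28 (0.1) in Apc against WT, and to 0.16 and 0.25 against P-Rspo3.

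P-Rspo3 against WT depended on the processing. Members lower numbered 0, but 2 with the DESeq2 test, 2 with all 3 groups in 1 fit, 1 with no FPKM filter (Ptk7), and 0 to 2 without 1 library (Ptk7 without WT 1, Fzd1 and Ptk7 without the naive library); members higher stayed at 0. Over all genes, the 1 higher and 0 lower became 53 and 173 with DESeq2, 2 and 4 with the newer edgeR form, 2 and 11 with no FPKM filter, 14 and 61 with all 3 groups in 1 fit, 3 and 4 with limma at a pseudocount of 1 and 2 and 1 at 0.1. Without 1 library they ranged from 1 to 166 higher and from 0 to 100 lower, both highest values without the naive library, where WT held only Apc flox/flox libraries. The cause was not tested, here or for the other counts that moved.

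Over all genes, adjusted p alone gave 5028 higher and 4864 lower in Apc against WT and 4719 and 4557 against P-Rspo3, and limma at a pseudocount of 1 gave 1132 lower against WT and 1430 higher and 1124 lower against P-Rspo3. Without 1 library the counts ran from 1960 to 2149 higher and 2183 to 2441 lower against WT, and from 2130 to 2459 and 2111 to 2290 against P-Rspo3. The mean summed ligand FPKM without 1 library ran from 3.33 to 3.6 in WT, 2.86 to 3.5 in P-Rspo3 and 23.3 to 26.6 in Apc, and the summed Frizzled FPKM from 38.6 to 40.5, 39.1 to 42.7 and 50.5 to 53.2.

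At this depth Wnt7b, Wnt10a and Fzd10 had no counts in WT, so that their folds are bounds. The 10 members that passed the filter in no comparison (9 ligands and Ror1) have no reported test in the main fits.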

Other observations

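The 2 libraries without a group gave the following member values. In LIPO and NAIVE_F, Fzd5 read 23.4 and 24.7 FPKM, Fzd7 7.49 and 6.87, Fzd6 2.16 and 2.82 and Fzd4 5.40 and 3.58. Wnt3 read 1.63 and 1.39 FPKM, and Wnt6 had 2 and 3 counts. Wnt7b and Wnt10a had 0 counts in both, and Fzd10 had 1 count in LIPO and 0 in NAIVE_F. Ptk7 had 52 and 42 counts, values between the highest P-Rspo3 library (35) and the lowest WT library (62). Fzd1 had 42 counts in each, above every P-Rspo3 library (9 to 17) and above the naive WT library (18). With NAIVE_F counted in P-Rspo3, as its genotype label has it, the Fzd1 counts of that group and WT would overlap.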
